A study of Mus musculus with 30 samples.

Results

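Complement is a set of proteins of blood and tissue that mark particles and cell debris for uptake. Its RNA was followed here through 9 genes, taken as every row of the deposited count table that carries the name C1qa, C1qb, C1qc, C2, C4b, C3, C3ar1, C5ar1 or Serping1. All 9 names were found once, among 51752 genes. In the classical route C1q binds its target, the C1 proteases cut C4 and C2, and the enzyme that these form cuts C3. Fragments of C3 and C5 are then read by receptors on myeloid cells. In the brain C1q is made mainly by microglia and is known for its part in the removal of synapses during development. Microglia depend for survival on the receptor Csf1r, which IL-34 binds.

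The 30 libraries came from 15 mice in separate genotype and antibody experiments. The genotype experiment compared 3 Il34 knockout (KO) mice with 4 Il34 heterozygous (Het) mice, so its controls also carry a deleted Il34 allele. The antibody experiment compared 4 wild-type mice given a blocking antibody against IL34 with 4 given anti-gp120, the control antibody. After saline perfusion each brain was split, and 1 hemisphere gave a whole-forebrain library while the other gave a library of cells isolated with beads against CD11b, called isolated microglia here. Age, strain and antibody dose are not given in the sources used here, and the labels do not say how Il34 was deleted. Animal numbers are those of the labels, and a number used in both experiments stands for separate mice. KO animal 3 was the only male of its arm and anti-IL34 animal 11 the only female.

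Library totals lay between 15.1 and 75.2 M (mega-counts). Il34 itself had 19.4 to 23.4 counts per mega-count (CPM) in Het forebrain and 6.80 to 8.72 CPM in KO forebrain, with the arms apart. In isolates it stood at 5.02 to 11.0 CPM in Het and 5.84 to 7.33 CPM in KO libraries, which overlap, so it checks the genotype labels in forebrain alone. It does not check the antibody labels. The isolation was checked with marker lists in the 8 control animals. All 15 microglia markers were higher in the isolates (median log2 difference 5.44) and all 8 neuron markers lower (median -4.25), while 4 of 7 astrocyte markers were higher (median 0.58). Also higher were 7 of 7 border macrophage markers (median 5.12) and 7 of 7 neutrophil and monocyte markers tested (median 5.73). The same held for 6 of 7 endothelial and mural (1.81), 4 of 6 choroid plexus (1.90) and 5 of 6 fibroblast and meninges markers (1.00). Of the oligodendrocyte lineage markers 1 of 6 was higher (median 0.11). The median over all genes was -0.05. Itgam, which encodes CD11b, cannot serve as a check: 99.1% of its exon bases lie inside another gene of the same strand and it had at most 3 counts in any library. RNA of astrocytes and of these other cells was thus present in the isolates, and the summed astrocyte level in each arm is given beside the results.

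The 3 C1q chain genes lie in a row on chromosome 4 of GRCm38, minus strand. C1qb (ENSMUSG00000036905) spans positions 136880129 to 136886187, C1qc (ENSMUSG00000036896) 136889804 to 136893065 and C1qa (ENSMUSG00000036887) 136895917 to 136898803. C4b (ENSMUSG00000073418) spans 34728380 to 34743882, C2 (ENSMUSG00000024371) 34862604 to 34898265 and C3 (ENSMUSG00000024164) 57203970 to 57228136, all on the minus strand of chromosome 17. C3ar1 (ENSMUSG00000040552) lies on chromosome 6 at 122847138 to 122856161, C5ar1 (ENSMUSG00000049130) on chromosome 7 at 16246743 to 16259540 and Serping1 (ENSMUSG00000023224) on chromosome 2 at 84765387 to 84775444, each on the minus strand. The gene length in the deposited table is the whole span, introns included, but the feature over which reads were counted is not given in the sources used here. Overlaps between genes therefore matter, and levels per kb of exon compare genes only to the extent that the counted reads came from exons. For C2, 83.5% of the exon bases lie inside the span of Gm20547 on the same strand, introns included, and 95.8% inside the span of a gene of either strand. It had 1 to 40 counts in any library, so its values say little about C2 RNA. C4b has a near-identical copy, C4a, and its count is uncertain to the extent that reads were divided between them. C4a had 2 to 138 counts per library and C4b 202 to 7787.

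The log2 fold changes of the 3 C1q chains had the same sign in all 4 comparisons of arms, so the sequences before the starts of C1qb and C1qc are shown, the C1q genes for which RefSeq promoters of GRCm38.p6 were at hand (5 of the 9 genes matched). The RefSeq starts, at 136886200 for C1qb and 136892914 for C1qc, differ from those of the spans above, and the RefSeq start of C1qc lies inside its span. The lines give, of the 250 bases before the RefSeq start, those that also lie outside the span: 250 at chr4:136886201-136886450 for C1qb and 99 at chr4:136893066-136893164 for C1qc, 5′ to 3′ on the minus strand. Capitals mark a match to GAGGAAGT, a sequence known to be bound by Spi1, a transcription factor of the myeloid lineage also called PU.1.
C1qb: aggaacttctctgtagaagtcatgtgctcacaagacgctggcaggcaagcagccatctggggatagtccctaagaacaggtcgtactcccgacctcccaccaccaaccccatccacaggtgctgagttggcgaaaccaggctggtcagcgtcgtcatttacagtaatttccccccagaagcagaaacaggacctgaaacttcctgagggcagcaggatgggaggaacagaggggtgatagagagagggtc
C1qc: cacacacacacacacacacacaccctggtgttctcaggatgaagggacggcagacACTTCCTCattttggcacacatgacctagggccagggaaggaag
The match in C1qc stands on the opposite strand at positions -195 to -188 from the RefSeq start. Both strands of 300 bases, 250 before and 50 after each RefSeq start, were searched. Among 32851 promoters of that length 3.20% hold GAGGAAGT. Of the 5 promoters the interferon-stimulated element GAAANNGAA was found in C5ar1 (-66 to -58), against 8.56% of all promoters, and TTCNNNGAA, the STAT element, in none, against 8.30%. The RefSeq start of C5ar1, 16259338, lies inside its span, and so does the GAAANNGAA match. No promoter of C4b was at hand, and none of these matches was tied to a measurement.

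In control animals the isolates carried far more RNA of 8 of the 9 genes than the forebrain did. Levels in the next sentences are CPM scaled by TMM (a correction for library composition) and, where genes are compared, divided by exon length in kb. Over the 8 control isolates C1qb stood at 701 ± 204 CPM per kb (SD, n = 8), C1qa at 698 ± 181 and C1qc at 403 ± 107 (SD, n = 8 each). The receptor for the C3a fragment, C3ar1, followed with 76.6 ± 28.5 CPM per kb, and the C5a receptor C5ar1 with 22.1 ± 10.3 (SD, n = 8 each). C4b came next with 11.5 ± 4.17 CPM per kb, then Serping1, the inhibitor of the C1 proteases, with 7.64 ± 2.28, and C3, the component on which all routes meet, with 5.20 ± 1.69 (SD, n = 8 each). Neighbours in this order overlapped in their ranges, except that the lowest C1qc value, 273, lay above the highest C3ar1 value, 110 CPM per kb. In forebrain the C1q chains again stood highest, at 14.3 ± 6.60 (C1qb), 12.6 ± 5.65 (C1qa) and 8.15 ± 4.06 CPM per kb (C1qc, SD, n = 8 each). There C4b came next at 2.36 ± 0.430 and then Serping1 at 1.65 ± 0.458 CPM per kb, ahead of C3ar1 at 0.472 ± 0.128 (SD, n = 8 each). The forebrain controls of the experiments stood apart: C1qa was at 8.33 ± 0.472 in Het and 17.7 ± 4.48 CPM per kb with anti-gp120, and C4b at 2.04 ± 0.107 and 2.83 ± 0.174 (SD, n = 4 each).

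The log2 difference of isolates over forebrain was 7.35 for C3ar1 (SE 0.28) and 7.23 for C5ar1 (SE 0.31). It was 5.87 for C1qa, 5.70 for C1qb and 5.73 for C1qc (SE 0.20 each), and 5.65 for C3 (SE 0.27). C4b and Serping1 differed less, by 2.26 (SE 0.13) and 2.21 (SE 0.20). All 8 passed the edgeR test at a Benjamini-Hochberg adjusted p of 0.05, the threshold used throughout, with the highest adjusted edgeR p, 2.11e-08, for Serping1. C2 was lower in isolates (-0.81, SE 0.27, adjusted edgeR p 0.0121) on counts of 1 to 40. These calls sit against a background in which 40.5% of all 19952 genes tested were called higher in isolates and 43% lower. Among 46 other complement genes 31 could be tested, of which 15 were higher and 11 lower in isolates. The higher ones included Itgb2, the shared chain of the C3 fragment receptors (6.07), Itgax (6.00), the C5a receptor C5ar2 (4.74), and the proteases C1s1 (3.20) and C1ra (2.07 on the log2 scale).

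**Figure D1:**
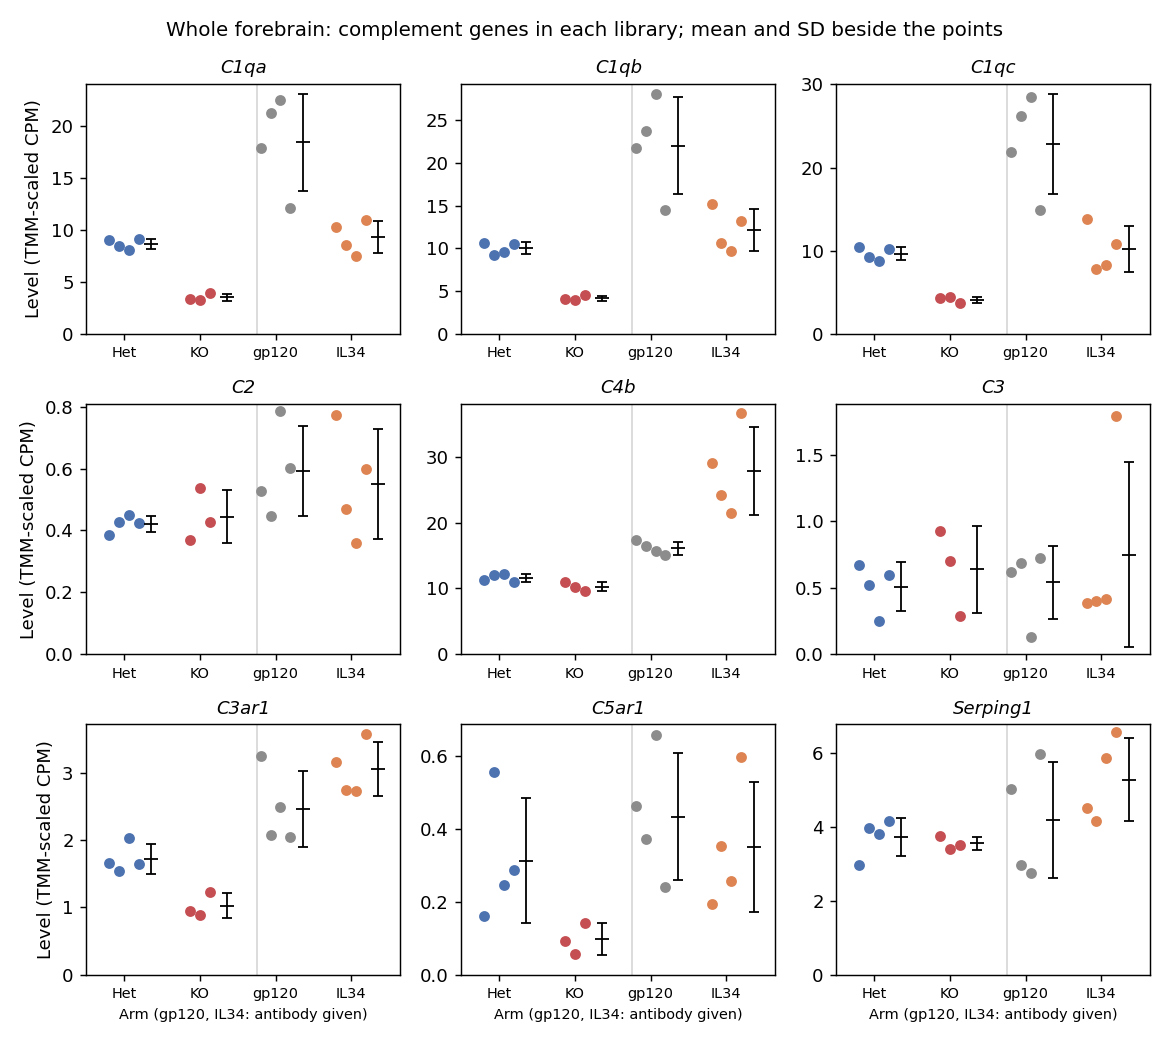
Level of each gene in whole forebrain (TMM-scaled CPM) in each library of the 4 arms, with the mean and SD beside the points. The 3 KO libraries lie below the 4 Het libraries for C1qa, C1qb and C1qc, and the 4 anti-IL34 libraries lie above the 4 anti-gp120 libraries for C4b.

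In KO forebrain all 3 C1q chains fell and no other of the 9 genes passed the test. C1qa, the A chain, stood at 9.05, 8.45, 8.08 and 9.09 CPM in Het animals 1, 20, 21 and 23. In KO animals 3, 6 and 24 it stood at 3.36, 3.26 and 3.90 CPM, all below every Het library. With sex in the model, the log2 fold change was -1.33 (SE 0.105, adjusted edgeR p 2.84e-05). C1qb went from 10.0 ± 0.703 (SD, n = 4) to 4.19 ± 0.292 CPM (SD, n = 3), a change of -1.27 (SE 0.10, adjusted edgeR p 2.84e-05). C1qc went from 9.63 ± 0.807 (SD, n = 4) to 4.09 ± 0.384 CPM (SD, n = 3), a change of -1.22 (SE 0.107, adjusted edgeR p 6.95e-05). For both chains the arms were apart as for C1qa. The count of 3 of 9 lower compares with 0.615% of all genes tested called lower and 0.00517% called higher. The median log2 fold change of the 9 genes was -0.76, against 0.00 over all genes. The 3 calls held in each of the 7 fits that left out 1 animal.

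The receptors and the components further along the route did not pass in KO forebrain. C3ar1 stood at 1.54 to 2.04 CPM in Het and at 0.890 to 1.24 CPM in KO libraries, which do not overlap, and its change was -0.76 (SE 0.20, adjusted edgeR p 0.206, or 0.0267 with no filter on low counts, where 381 of 30696 genes were called against 120 of 19343). It was not called under the other alternatives. C5ar1 had 3 counts in each KO library and 10 to 30 in the Het libraries, a fitted change of -1.96 with a wide error (SE 0.55, adjusted edgeR p 0.262). C4b was nearly level, at 11.3, 12.1, 12.2 and 10.9 CPM in Het animals 1, 20, 21 and 23 and 11.0, 10.2 and 9.60 CPM in KO animals 3, 6 and 24 (-0.16, SE 0.08, adjusted edgeR p 0.679). Those ranges meet. Serping1 differed by -0.08 (SE 0.14) and C3 by 0.39 (SE 0.39), the latter on 6 to 42 counts a library. Of the other complement genes 32 were tested and 2 were lower, among them Itgb2 (-1.49, SE 0.23, adjusted edgeR p 0.00844).

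The C1q chains fell in a setting where microglia genes as a group were lower. Of the 15 microglia markers 12 were lower in KO forebrain, with a median of -1.34, and none was higher. Their summed level was 277 to 311 CPM in Het and 121 to 139 CPM in KO. In whole forebrain fewer microglia and less RNA per cell cannot be told apart. The other lists with a call were few: 4 of 6 oligodendrocyte lineage markers were lower (median -0.34), and 0 of 7 astrocyte and 0 of 10 interferon-response genes passed.

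In isolated microglia of KO animals the same 3 chains fell by a like amount, but on calls that depend on single animals. C1qa stood at 517, 543, 836 and 654 CPM in Het animals 1, 20, 21 and 23 and at 229, 258 and 247 CPM in KO animals 3, 6 and 24. Every KO library was below every Het library, and Het animal 21 was the highest. The log2 fold change was -1.37 (SE 0.23, adjusted edgeR p 0.0238). For C1qb it was -1.34 (SE 0.22, adjusted edgeR p 0.0249) and for C1qc -1.33 (SE 0.21, adjusted edgeR p 0.0207). These 3 of 8 genes tested compare with 5.22% of all genes called lower and 0.143% called higher. The median over the 8 genes was -0.76, against 0.02 over all genes. C2 was too low to be tested. No gene of the 9 passed without Het animal 20 or 23 or KO animal 3, 6 or 24, while 3 passed without Het animal 21 and 5, with C3ar1 and C5ar1 added, without Het animal 1. Calls over all genes moved likewise: 0 in each of the 5 fits without a member called, 3115 of 18073 without Het animal 21 and 5756 of 18294 without Het animal 1.

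Among the receptors in these isolates C3ar1 varied most within an arm. It stood at 121, 240, 486 and 324 CPM in Het animals 1, 20, 21 and 23, and at 124, 140 and 183 CPM in KO animals 3, 6 and 24. Het animal 1 lies below all KO libraries, and the change of -0.99 (SE 0.47) had an adjusted edgeR p of 0.180. C5ar1 showed the same low Het animal, 18.6 CPM against 40 to 55.2 CPM in the other Het and 26.1 to 33.7 CPM in the KO libraries (-0.53, SE 0.36). Without Het animal 1 the C3ar1 change was -1.18 (adjusted edgeR p 0.0336) and the C5ar1 change -0.73 (adjusted edgeR p 0.0279).

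C4b did not follow C1q in KO isolates. It stood at 56.7, 54.2, 52.4 and 42.3 CPM in Het animals 1, 20, 21 and 23 and at 70.2, 56.6 and 47.9 CPM in KO animals 3, 6 and 24, with overlapping arms and a change of 0.22 (SE 0.14, adjusted edgeR p 0.297). C3 stood at 21.5 to 41.4 CPM in Het and 24.3 to 26.9 CPM in KO (-0.35, SE 0.22, adjusted edgeR p 0.294). Serping1 was at 41.0, 23.8 and 9.08 CPM in KO animals 3, 6 and 24, the highest and the lowest library of the experiment both being KO. Its value moved with a fibroblast and meninges list, whose summed level was 941, 615 and 264 CPM in these animals and 328 to 555 CPM in Het. Without KO animal 3 the Serping1 change of 0.51 (SE 0.51) turned to -0.25. Of 29 other complement genes tested 2 were lower, C5ar2 (-1.22, SE 0.18, adjusted edgeR p 0.0180) and Itgb2 (-1.27, SE 0.25, adjusted edgeR p 0.0361).

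The microglia list summed to 13416 to 23294 CPM in Het and 5326 to 5773 CPM in KO isolates, with 15 of 15 markers lower. The astrocyte list summed to 3199 to 11769 CPM in Het and 12923 to 16315 CPM in KO, with a median change of 0.97 and 0 of 7 passing. The neuron list summed to 611 to 2390 CPM and 2040 to 3570 CPM (median 0.91, 0 of 8 passing). Oligodendrocyte lineage markers summed to 3045 to 10373 CPM in Het and 8251 to 18683 CPM in KO, which overlap (median 0.83, 0 of 6 passing). Border macrophage markers summed to 803 to 961 CPM and 427 to 875 CPM, which overlap (median -0.17, 0 of 7 passing). No astrocyte or neuron marker was at 0 in any of these libraries. The part of these other cells in the C1q result was not tested.

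**Figure D2:**
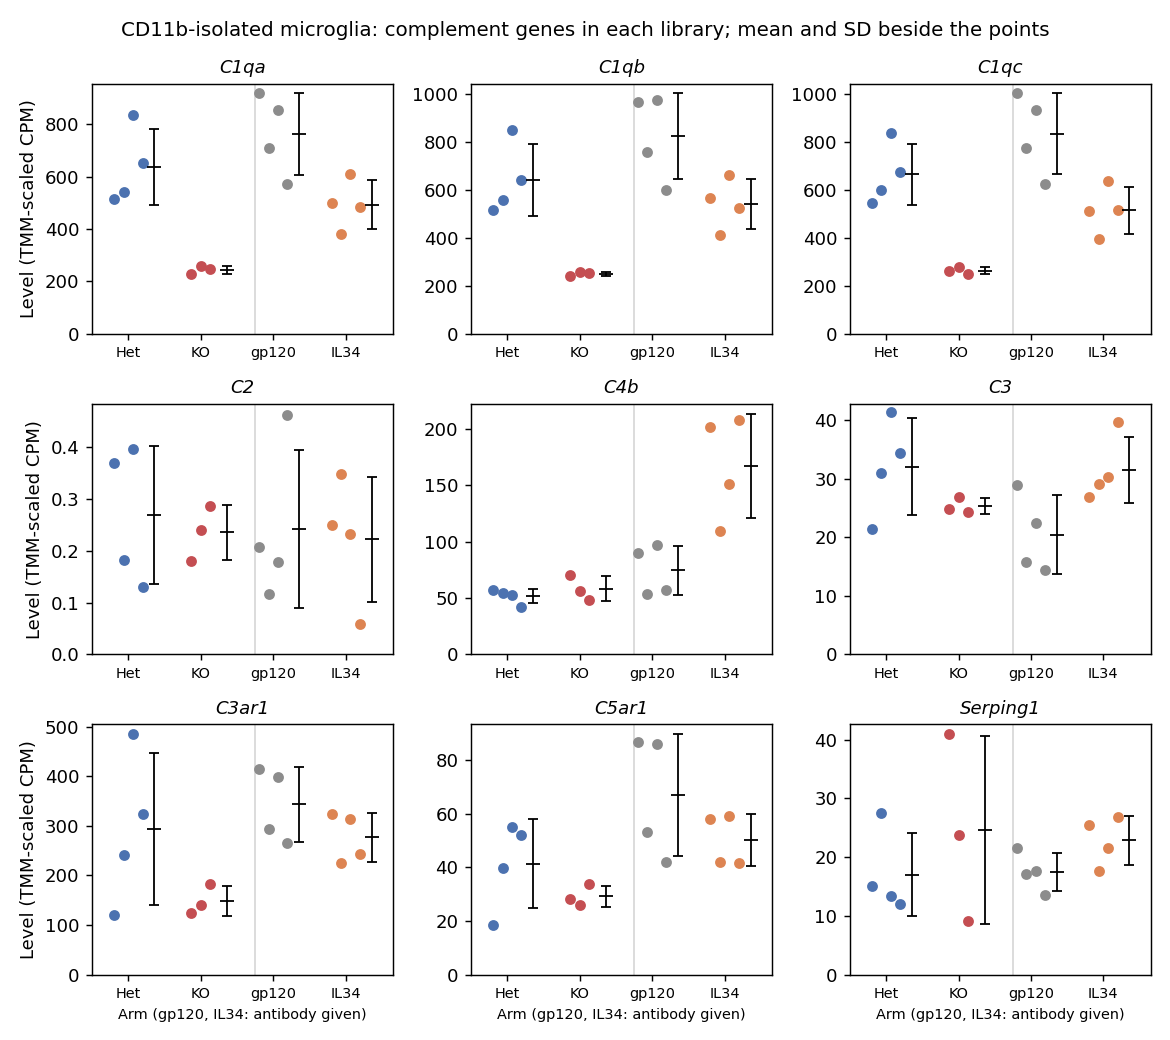
Level of each gene in isolated microglia (TMM-scaled CPM) in each library of the 4 arms, with the mean and SD beside the points. KO libraries lie below Het libraries for the 3 C1q chains, while C4b is highest in the 4 anti-IL34 libraries, from 110 to 208 CPM.

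With the antibody against IL34 the C1q chains were lower in forebrain as well, and C4b rose. C1qa stood at 17.9, 12.1, 21.2 and 22.6 CPM in anti-gp120 animals 1, 15, 7 and 8, and at 8.52, 7.52, 10.3 and 10.9 CPM in anti-IL34 animals 10, 11, 2 and 24. The arms do not overlap, and anti-gp120 animal 15 is the lowest control. The log2 fold change was -1.05 (SE 0.18, adjusted edgeR p 0.0195). C1qc fell from 22.8 ± 5.98 to 10.2 ± 2.75 CPM (SD, n = 4 each), by -1.25 (SE 0.21, adjusted edgeR p 0.0213). C1qb went from 22.0 ± 5.66 to 12.2 ± 2.47 CPM (SD, n = 4 each), and its change of -0.92 (SE 0.19, adjusted edgeR p 0.0562) was not called. DESeq2 called it (adjusted DESeq2 p 0.000151), as did edgeR over the 15 forebrain libraries (adjusted edgeR p 0.00417), where 198 of 17143 and 204 of 19724 genes were called in all. It was not called with RLE size factors, with no sex term, or in 5 of the 8 fits without 1 animal. With no filter on low counts 3 of the 9 genes were called lower and 1 higher, where 349 of 30271 genes were called in all.

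C4b, the component that follows C1q in the route, stood at 17.3, 15.0, 16.4 and 15.7 CPM in anti-gp120 animals 1, 15, 7 and 8. In anti-IL34 animals 10, 11, 2 and 24 it stood at 24.2, 21.5, 29.1 and 36.7 CPM, all above every control library. It rose by 0.72 (SE 0.13, adjusted edgeR p 0.0320), or by 0.66 (adjusted edgeR p 0.0331) with the counts of its copy C4a added. Of 8 genes tested 2 were thus called lower and 1 higher, where 0.525% of all genes were called lower and 0.192% higher. The median of the 8 was 0.10, against 0.00 over all genes. C5ar1 did not pass the filter on low counts. These calls were sensitive to single animals. With animals left out singly, C4b lost its call in 5 of 8 cases, when the animal was anti-IL34 animal 2 or 11 or anti-gp120 animal 1, 7 or 8. Its change was 0.59 to 0.82 over the 8, with an adjusted edgeR p of 0.0155 to 0.185. C1qa lost its call without anti-IL34 animal 10 or 11 or anti-gp120 animal 7, and C1qc without anti-IL34 animal 11 or 24 or anti-gp120 animal 7. Thus none of the 9 passed without anti-IL34 animal 11 or anti-gp120 animal 7, and 4 passed without anti-gp120 animal 15. Leaving out each of these 3 animals in turn, 25 of 17451, 41 of 17264 and 126 of 17415 genes were called in all, and with every animal 123 of 17143.

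C3ar1 did not drop with C1q in this comparison. It stood at 3.26, 2.05, 2.08 and 2.49 CPM in anti-gp120 animals 1, 15, 7 and 8 and at 2.75, 2.73, 3.16 and 3.59 CPM in anti-IL34 animals 10, 11, 2 and 24 (0.24, SE 0.19, adjusted edgeR p 0.999). Serping1 differed by 0.36 (SE 0.25) and C3 by 0.26 (SE 0.53), neither past the threshold. The C3 value rested on anti-IL34 animal 24 with 1.79 CPM, and without it the change was -0.54. None of 27 other complement genes tested passed by edgeR.

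The microglia list was again lower in this forebrain comparison, with 12 of 15 markers called lower (median -1.23) and summed levels of 450 to 573 CPM with anti-gp120 and 205 to 280 CPM with anti-IL34. The interferon-response list was higher, with 10 of 10 genes called (median 2.28). Its summed level was 21.7 to 40.3 CPM with anti-gp120 and 80.9 to 219 CPM with anti-IL34. In KO forebrain, where C4b was level, it was 11.9 to 20.6 CPM against 17.7 to 18.7 CPM in Het. The part of the interferon response in the C4b result was not tested.

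**Figure D3:**
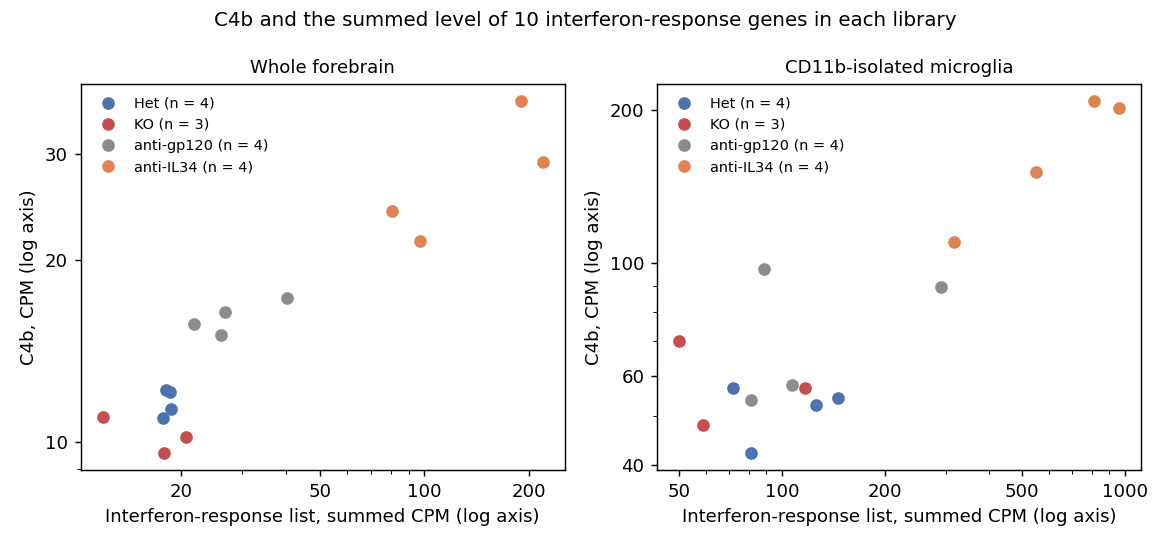
C4b level against the summed level of 10 interferon-response genes in each library (CPM, both axes logarithmic), for forebrain at left and isolated microglia at right. The 4 anti-IL34 libraries hold the highest values of both quantities in each tissue, while Het and KO libraries overlap.

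In isolated microglia of the antibody experiment none of the 8 genes tested was called by edgeR. At an unadjusted p under 0.05 there were 5 of 8, and DESeq2 called 2, C4b and C1qc. Over all 17570 genes 4559 had such a p and DESeq2 called 2020, while edgeR called 0.603% lower and 0.0228% higher. C1qa stood at 921, 572, 710 and 854 CPM in anti-gp120 animals 1, 15, 7 and 8 and at 382, 611, 500 and 483 CPM in anti-IL34 animals 10, 11, 2 and 24. The arms overlap through anti-gp120 animal 15 and anti-IL34 animal 11. The change was -0.62 for C1qa (SE 0.21, adjusted edgeR p 0.149), -0.59 for C1qb (SE 0.22, adjusted edgeR p 0.165) and -0.69 for C1qc (SE 0.21, adjusted edgeR p 0.127).

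C4b had the largest difference of the 8 in these isolates. It stood at 89.5, 57.4, 53.7 and 97.0 CPM in anti-gp120 animals 1, 15, 7 and 8 and at 110, 151, 202 and 208 CPM in anti-IL34 animals 10, 11, 2 and 24, without overlap. The change of 1.16 (SE 0.29, adjusted edgeR p 0.0882) was not called. C4b passed with DESeq2 (adjusted DESeq2 p 0.00442), with no filter on low counts, with no sex term, and with a fit over the 15 libraries of the tissue. These settings also called more of all genes: 2020 of 17570, 819 of 29795, 983 of 17570 and 988 of 18732, against 110 of 17570. C4b did not pass with RLE size factors, with C4a counts added, or in 7 of the 8 fits without 1 animal (adjusted edgeR p 0.0229 to 0.269 over the 8). C3 differed by 0.58 (SE 0.24, adjusted edgeR p 0.188), Serping1 by 0.34 (SE 0.18), C3ar1 by -0.30 (SE 0.21) and C5ar1 by -0.40 (SE 0.27).

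Without anti-gp120 animal 15, 5 of the 8 passed here, 1 higher and 4 lower, but so did 6905 of all 17071 genes tested. That library had the highest astrocyte sum of its arm, 16963 CPM against 4333 to 8742 CPM in the others, and the lowest C1qa of its arm in both tissues. The anti-IL34 isolates had astrocyte sums of 9623 to 17827 CPM and microglia sums of 6982 to 11175 CPM, against 15311 to 21112 CPM for microglia with anti-gp120. Of the microglia markers 5 of 15 were called lower (median -0.96), and of the astrocyte markers 0 of 7 passed (median 0.69), with overlapping sums. Neuron markers summed to 2711 to 4246 CPM with anti-IL34 and 965 to 3399 CPM with anti-gp120 (median 0.95, 0 of 8 called), and oligodendrocyte lineage markers to 5621 to 12075 and 3572 to 8912 CPM (median 0.62, 0 of 6 called). The interferon-response sum was 318 to 961 CPM with anti-IL34 and 81.1 to 291 CPM with anti-gp120 (median change 2.25, 0 of 10 called). Border macrophages and blood myeloid cells also carry CD11b. Border macrophage markers summed to 358 to 505 CPM with anti-IL34 and 510 to 943 CPM with anti-gp120 (median change -0.47, 0 of 7 called). Neutrophil and monocyte markers summed to 130 to 412 and 40.4 to 264 CPM, which overlap (median 0.73, 0 of 8 called). Markers of the choroid plexus, an epithelium, summed to 6.28 to 1990 CPM and 4.04 to 8.32 CPM (median 2.94, 0 of 5 tested called). Among the other complement genes 0 of 27 tested were called. The part of these cells and of the interferon-response genes in the C4b and C1q values was not tested.

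**Figure D4:**
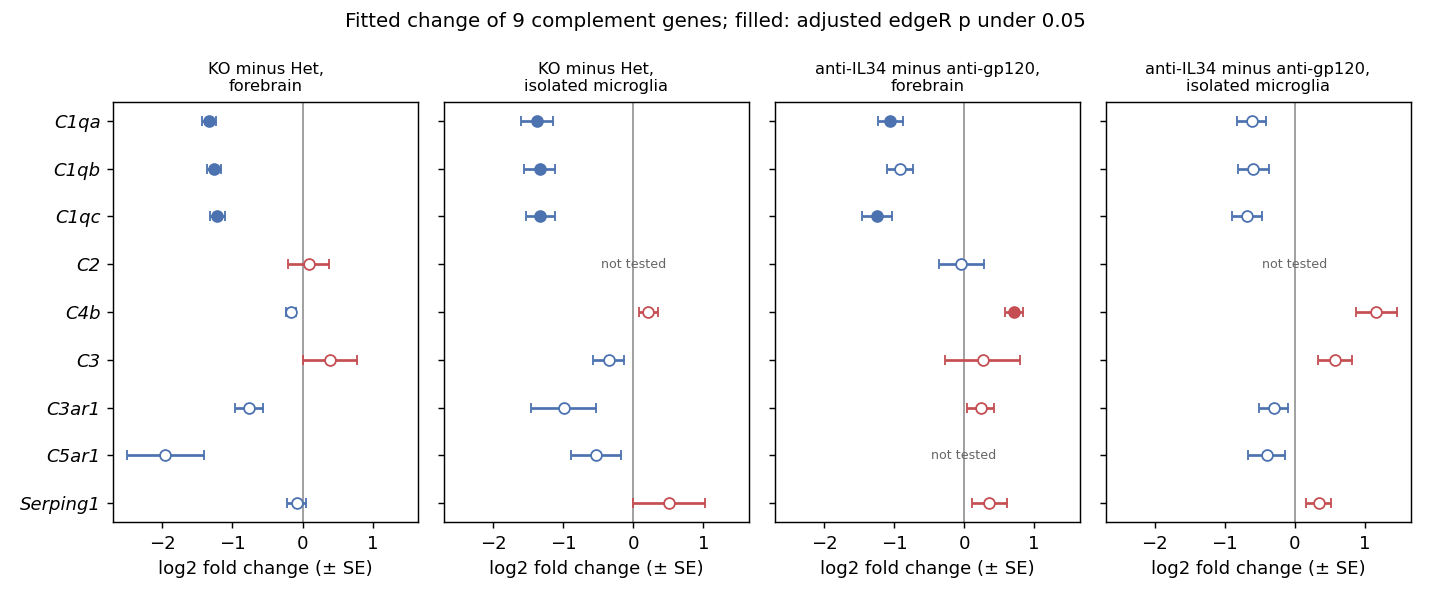
Fitted log2 fold change with its SE for the 9 genes in the 4 comparisons of arms. Filled points passed the edgeR test and open points did not. C2 in isolates of both experiments and C5ar1 in forebrain of the antibody experiment were not tested. The C1q chains lie between -1.37 and -0.59 throughout, while C4b lies at 0.72 and 1.16 with the antibody and at -0.16 and 0.22 with the deletion.

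An interaction term of arm and tissue compared the effects between forebrain and isolates. None of the 9 genes was called in the genotype experiment, where 2.98% of genes were, or in the antibody experiment, where 0.0924% were. With the animal as replicate block no gene of the whole table was called in either (0 of 20107 and 0 of 18399, against 599 and 17 without the block). DESeq2 called 0 of the 9 in each, and 3595 and 1092 of all genes. At an unadjusted p under 0.05 there were 1 (C4b) and 0 of the 9, and 6242 and 3890 of all genes. In the genotype experiment the effect in isolates less that in forebrain was -0.02 for C1qa (SE 0.26), -0.05 for C1qb (SE 0.25) and -0.07 for C1qc (SE 0.23), on a scale where the median gene stood at 0.12. For C4b it was 0.42 (SE 0.16, adjusted edgeR p 0.114). In the antibody experiment the C1q values were 0.42 (C1qa), 0.32 (C1qb) and 0.54 (C1qc), with SEs of 0.30 to 0.34.

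The difference between deletion and antibody was tested over all 15 libraries of a tissue. In forebrain none of the 9 was called by edgeR, against 0.0101% of all genes, although 3 had an unadjusted p under 0.05 and DESeq2 called 1. Over all 19724 genes these counts were 605 and 27. C4b had the lowest p, with a deletion effect 0.90 below the antibody effect (-0.90, SE 0.16, adjusted edgeR p 0.146). It was the gene that DESeq2 called (adjusted DESeq2 p 6.72e-04), and edgeR called it in 3 of the 15 fits without 1 animal, when anti-IL34 animal 10, 11 or 24 was left out. For C3ar1 the difference was -0.998 (SE 0.269, adjusted edgeR p 0.705). For the C1q chains it was -0.29 (C1qa), -0.36 (C1qb) and 0.02 (C1qc), with SEs of 0.23 to 0.28. In isolates none of the 9 was called (0% of all genes were), although 4 had an unadjusted p under 0.05, as did 740 of all 18732. DESeq2 called 0 of the 9 and 27 of all genes. The C4b difference was -0.90 there too (SE 0.34), and the C1q differences lay between -0.74 and -0.62.

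Because the median microglia marker was lower in all 4 comparisons of arms, each gene was also set against the mean log2 CPM of the 15 microglia markers in the same library. This is a description with no test, and a gene that did not fall with the markers rises on this scale. In KO forebrain the C1q chains stood level relative to the markers, with differences from Het of -0.04 (C1qa), 0.01 (C1qb) and 0.03 (C1qc). In the other comparisons they stood higher relative to the markers than in controls, by 0.18 to 0.22 in KO isolates, 0.07 to 0.40 in anti-IL34 forebrain (arms apart for C1qb alone) and 0.33 to 0.42 in anti-IL34 isolates. The choice of markers bears on this. Against 7 of the markers that are not named for the homeostatic state the C1q values were 0.04 to 0.08, -0.16 to 0.17 and 0.07 to 0.17, and -0.17 to -0.09 in KO forebrain.

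The level of C4b relative to the markers was higher in all 4 comparisons. It moved from -3.49 to -1.78 in KO isolates and from -3.10 to -0.90 in anti-IL34 isolates, below the markers in each. It stood 1.08 higher in KO than in Het forebrain on the log2 scale, 1.71 higher in KO than in Het isolates, and 1.99 and 2.20 higher with anti-IL34 than with anti-gp120 in forebrain and isolates. With the 7 markers these values were 0.95, 1.57, 1.77 and 1.94. In forebrain the relative C4b level was -0.08, 0.21, 0.22 and 0.00 in Het animals 1, 20, 21 and 23 and 1.28, 1.07 and 1.16 in KO animals 3, 6 and 24. C3ar1 stood 0.52 higher relative to the markers in KO forebrain, with overlapping arms, and 1.55 higher in anti-IL34 forebrain, where arms were apart. In isolates it stood 0.72 higher in both experiments. In the genotype experiment this leaned on Het animal 1, at -1.96, where Het animals 20, 21 and 23 stood at -1.16, -0.68 and -0.79. C5ar1 in isolates moved from -3.91 to -2.76 with deletion and from -3.26 to -2.61 with the antibody, so it came nearer to the markers from below. With the 7 markers the differences were 0.58 and 0.46 for C3ar1 in isolates of the genotype and antibody experiments, 1.00 and 0.40 for C5ar1, and 0.39 and 1.33 for C3ar1 in forebrain. For C5ar1 in KO and anti-IL34 forebrain the differences with the 7 markers were -0.34 and 0.71. Against the full marker list C5ar1 differed by -0.21 in KO forebrain and by 0.93 in anti-IL34 forebrain, with overlapping arms in both. The remaining genes stood higher: in KO forebrain C3 stood 1.54, Serping1 1.21 and C2, on its low counts, 1.35 higher, each with arms apart. Their own fitted changes there were 0.39 (C3), -0.08 (Serping1) and 0.09 (C2), while the markers had a median of -1.34. A gene that stayed level would rise likewise. The share of all genes with arms apart on this scale was not computed. In KO isolates C3 stood 1.24 higher, with arms apart, and Serping1 1.90 higher, with overlap. With the antibody Serping1 stood 1.62 higher in forebrain and 1.41 in isolates, and C3 1.57 and 1.69, the arms overlapping for C3 in forebrain alone.

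**Figure D5:**
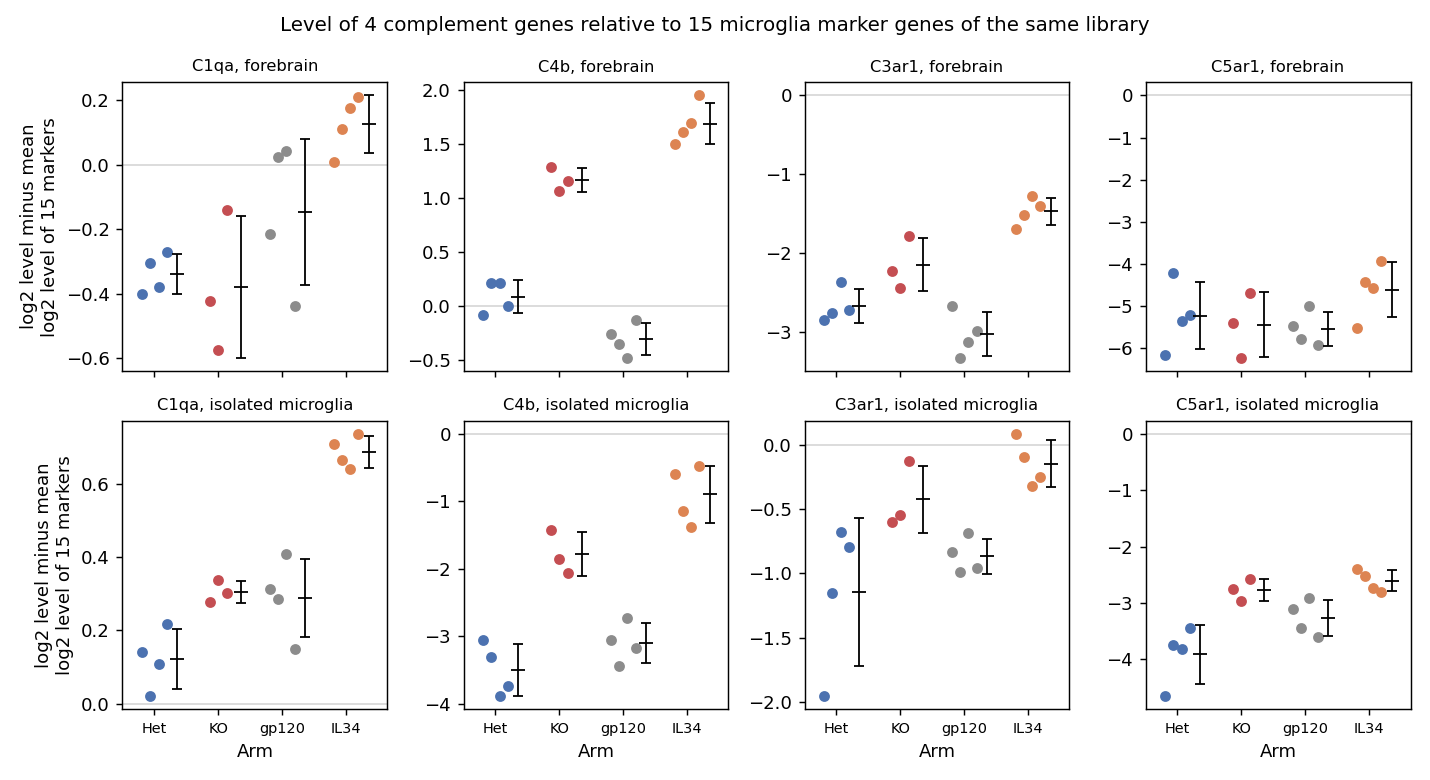
Level of C1qa, C4b, C3ar1 and C5ar1 as log2 CPM minus the mean log2 CPM of 15 microglia markers in the same library, with the mean and SD beside the points. C1qa of KO forebrain lies on both sides of its Het libraries, while C4b of KO and anti-IL34 libraries lies above all controls in both tissues.

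The 3 chains join into 1 protein, so their ratios were compared as log2 differences, 12 in all and with no test. Between arms they moved by 0.33 at most, C1qb over C1qc in anti-IL34 forebrain, from -0.05 ± 0.06 to 0.28 ± 0.13 (SD, n = 4 each), where the arms were apart. C1qa over C1qc moved by 0.07 in anti-IL34 isolates, also without overlap, from -0.13 to -0.06. In the other 10 the arms overlapped, with differences between -0.12 and 0.20. After taking off the mean of each experiment, levels of C1qa and C1qb had a Pearson r of 0.99 over the 15 forebrain libraries and 1.00 over the 15 isolates, as a description in which the arm differences are included. C3ar1 and C5ar1 had an r of 0.92 in the isolates. C4b against C1qa gave -0.27 in forebrain and -0.33 in isolates.

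The same measure named the genes most like each member. For the C1q chains in forebrain they were Arhgap45, Csf1r, Ctss, Mpeg1, Bin2 and Cyth4 (r of 0.97 to 0.98, n = 15 libraries), of which Csf1r and Ctss are in the microglia list. In isolates they were Aif1, Unc93b1, Cryba4 and Lyn (r of 0.99 to 1.00). For C4b they were Eif2ak2 (0.95), Rnf213 (0.94) and Mx2 (0.92) in forebrain and Samd9l (0.88), Oas1b (0.88) and A330040F15Rik (0.87) in isolates. Eif2ak2, Mx2 and Oas1b encode interferon-induced antiviral proteins. For Serping1 in isolates they were Dcn (0.98), which encodes a fibroblast matrix protein and is in the fibroblast list, Tfap2b (0.97) and Col6a1 (0.96). For C5ar1 in isolates they were B4galt5, Pim1 and Dusp5 (0.95 to 0.96).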

How the data were processed

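The authors deposited raw counts, whole numbers per gene, made with STAR 2.7.5c, featureCounts 1.6.3 and R 4.4.0 on GRCm38 per the submitters' processing notes. Their settings, strand use and annotation are not given in the sources used here. Libraries were made from TRIzol-extracted RNA using the SMART-Seq v4 kit for low input (labels' protocols). A Length value, another unit of the deposited table, equalled the whole gene span, introns included, for 51183 of 51498 gene IDs matched to GENCODE M21. The counted feature is not given, and reads may be lost or shared where genes overlap. Of the columns of per-sample counts, 6 matched no labelled sample and were not used, and 8 genes had no name.

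The test was that of edgeR 4.0.16 under R 4.3.3 (TMM, default expression filter on the group, quasi-likelihood F test, Benjamini-Hochberg adjustment over all genes tested at 0.05), and the SE is the log2 fold change over the square root of F. Arms were compared within 1 tissue and 1 experiment with sex as covariate. Tissues were compared over the 8 control animals with experiment and sex. The procedure was tested on simulated data. Log2 CPM used a prior count of 0.5. Group levels are TMM-scaled CPM of each fit, so levels set across experiments come from separate fits and experiment and arm cannot be told apart. DESeq2 1.42.0, other scaling, no filter, no sex term, a fit over 15 libraries, each animal left out and C4a added to C4b were the alternatives. The last was chosen after seeing the data.

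Groups and animals came from the labels, and the deposited sample sheet gave the same animal number for 30 of 30 libraries. The labels do not say more on how animals were handled, so p-values measure the spread between these animals. Both libraries of an animal share it, and their deviations from the group means had a median correlation of 0.156 over 17778 genes (0.0440 to 0.261, above 0.1 in 11 of 15 animals). The 9 genes, the marker lists and the other complement genes were chosen with earlier results of these data known. The 9 were named in every comparison, other complement genes where they passed, and for likeness the 3 genes with the highest Pearson r. Some genes that met these rules are not reported here. The permutation tests planned for levels relative to markers and for chain ratios are not reported, since their adjustment would run over the chosen genes alone.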

Additional observations from a re-analysis of the deposited data

Results flagged for a closer look

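C3 in anti-IL34 forebrain had 1 library far from the others. Animal 24 stood at 1.79 CPM, and the nearest library at 0.412 CPM. The gap was 0.982 of the whole range, above the Dixon 95% critical value for 4 samples. Of 54 group values tested this was the 1 that stood out, and chance gives about 1 in 20. C4b was also highest in this library of its arm, at 36.7 CPM, as was Serping1, at 6.58 CPM. The choroid plexus list summed to 133 CPM in this library and to 7.23 to 25.3 CPM in the others of its arm, and its part in the C3 value was not tested.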

How the results depend on the processing

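The 3 C1q calls in KO forebrain were made under every alternative run. Counts of the 9 genes called ran from 0 to 5 when an animal was left out in KO isolates, from 0 to 4 in anti-IL34 forebrain and from 0 to 5 in anti-IL34 isolates, while calls over all genes ran from 0 to 5756, 25 to 126 and 0 to 6905. In anti-IL34 isolates the count was 1 with no filter on low counts, 2 with DESeq2, 1 with no sex terms and 1 with the fit over 15 libraries, where calls over all genes were 819, 2020, 983 and 988, against 110. For deletion less antibody in forebrain it was 1 with no filter (114 of all genes), 1 with DESeq2 (27 of all genes) and 0 to 1 with an animal left out. The direction of some values that were not called turned. With an animal left out C3 in KO forebrain ran from -0.0192 to 0.63, Serping1 in KO isolates from -0.25 to 0.99 and C3 in anti-IL34 forebrain from -0.54 to 0.60. The genotype interaction ran from -0.15 to 0.17 for C1qa, -0.18 to 0.14 for C1qb, -0.22 to 0.10 for C1qc and -0.39 to 0.21 for C3ar1, and for C1qa it was 8.56e-05 with no filter. Deletion less antibody for C1qc in forebrain ran from -0.0913 to 0.18 and was -0.0245 with no sex terms.

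With the animal as replicate block, all 9 genes were called between tissues and 0 in each interaction, as without it. Over all genes the block left 0 calls in each interaction, where 599 and 17 were made without it. The C1qa genotype interaction was 0.00453 with the block.

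The number of animals limits precision for all genes, and counting error adds to it for C2, C3 and C5ar1 in forebrain, which had at most 47 counts in any forebrain library.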

Other observations

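Counts of complement genes that lie within another gene of the same strand were near 0. Cfb, which encodes factor B, has 98.7% of its exon bases inside the span of Gm20547 and had at most 2 counts in any library. Itgam had at most 3 counts, with 99.1% inside such a span. Fcna had 2 to 451 counts, with 100% of its exon bases inside spans of the other strand and 0 inside those of the same strand. C1s1, with 80.3% inside a span of the other strand, had 18 to 850. Values for Cfb and Itgam in this table therefore say nothing of their RNA level.

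The deposited libraries also held terminal and plasma components at low counts. C1rb and Mbl1 had 0 counts in all 30 libraries, Cfd at most 1 and Cfi at most 7. C6 was higher in control isolates than in control forebrain by a log2 difference of 4.69 (SE 0.46, adjusted edgeR p 7.56e-08) and C7 lower by 4.61 (log2 difference -4.61, SE 0.35, adjusted edgeR p 3.25e-09). Of 5 genes listed for proteins with sushi domains or repeats, 4 were lower in isolates, where 43% of all genes were called lower. They were Csmd1 at -4.25, Csmd2 at -2.99, Csmd3 at -1.64 and Susd4 at -2.37 on the log2 scale, with a highest adjusted edgeR p of 2.73e-08. Srpx2 was not called (-0.20, SE 0.17, adjusted edgeR p 0.283).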
